A study of Mus musculus with 2 samples.

Results

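The mitochondrial carriers of the SLC25 family, together with the uncoupling proteins, were examined in the liver of mice lacking apolipoprotein E. Members were all genes whose symbol begins with Slc25a, plus Ucp1, Ucp2 and Ucp3, wherever a probe set of the array was annotated with that single symbol. This gave 35 of the 12393 genes with such a probe set, read by 68 of 20380 probe sets. A further 15 protein-coding genes of the RefSeq annotation that the rule would take had no such probe set and were not analysed here; Ucp2, the citrate carrier gene Slc25a1 and Slc25a12 are among them.

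Pooled liver RNA of apolipoprotein E-deficient males on a C57BL/6J background, 2 months old per the labels, was hybridized to Affymetrix 3' expression arrays. The oleanolic acid array stands for mice whose semipurified Western diet held 0.01% oleanolic acid, a plant triterpenoid, given for 11 weeks to provide 10 mg per kg daily. The control array stands for mice on the Western diet without it, also for 11 weeks; its growth protocol nevertheless names oleanolic acid, so the groups were taken from the titles and diet labels. The labelled age of 2 months is shorter than 11 weeks of diet, so it cannot be the age at collection if both labels hold. All mice of both groups lack apolipoprotein E, so the comparison holds for that genotype alone. How many mice made each pool is not stated in the sources used here. With 1 array per diet there is no replicate check, no p-value is given, and each difference describes these 2 arrays.

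Carriers of this family sit in the inner mitochondrial membrane and exchange nucleotides, phosphate, carboxylates, amino acids and cofactors between cytosol and matrix. In hepatocytes they link the matrix steps of the urea cycle, fatty acid oxidation, gluconeogenesis and heme synthesis to the cytosol. Uncoupling proteins are relatives that carry protons or other ions, and Ucp1 is the heat-producing member of brown fat.

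Values are MAS5 signals, linear intensities that the authors deposited, and a log2 ratio is always oleanolic acid over control. Signals below the array's 25th percentile (10.1 in the oleanolic acid and 10.7 in the control array) were set to that floor. A probe set counted as measured where it reached the median signal of its array (59.3 for oleanolic acid, 61.5 for control) on either array. The only repeat measure is the probe set SD: the SD between measured probe sets of a gene or, for a gene with 1, the pooled SD of genes of similar signal. It covers probe and hybridization error within these arrays and not variation between mice. Signals of different probe sets are not comparable as levels, so no order of abundance among carriers is given.

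Defining hepatocyte markers were bright on both arrays. The 9 markers with a probe set, such as Alb and Apoa1, had signals of 2725 to 13122 in the oleanolic acid array and 3178 to 12549 in the control array, with sums of 75694 and 75021. Of the 9, 8 were within 0.5 of a log2 ratio of 0. Tat was lower, with 2725 in the oleanolic acid and 4440 in the control array (log2 ratio -0.70). Some markers of other cell types were less even. Over all genes read from their brightest probe set, 51.3% were lower in the oleanolic acid array. The 7 exocrine pancreas markers summed to 273 in the oleanolic acid array and 913 in the control array, with all 7 lower in the oleanolic acid array. They lay at 51.6 or below there, under the array median of 59.3, so they counted as measured only through the control array. The 5 B and plasma cell markers summed to 236 and 1069, with 3 of the 5 lower, and Ighm (114 in the oleanolic acid and 840 in the control array for its brightest probe set) made up most of that difference. The 8 macrophage markers summed to 12449 in the oleanolic acid array and 13515 in the control array, with all 8 lower in the oleanolic acid array. The differences were small, with 7 of the 8 within 0.5 of a log2 ratio of 0. Marco was lowest at -0.67 (151 in the oleanolic acid and 241 in the control array). In pooled bulk tissue, fewer cells of a type and less RNA per cell cannot be told apart.

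Most carriers had nearly the same signal on both arrays. Of the 35 members, 28 were measured, and 23 of these 28 (82.1%) lay within 0.2 of a log2 ratio of 0, where 68.2% of the 7137 measured genes lay. Dim genes scatter more than bright ones, and 18 of the 28 carriers lay in the upper 2 of 4 bands of mean signal. In the brightest band, 594.6 units and above, 10 of 10 carriers were within 0.2 of 0, as were 82% of all genes there. In the next band, 241.8 to 594.2 units, 5 of 8 carriers were, against 73.7% of genes, and in the band from 124.8 to 241.8 units 7 of 7 were, against 66.5%. In the dimmest band 1 of 3 was, against 50.7%. The median log2 ratio was -0.04 over the 28 carriers and 0.0012 over all measured genes. It was below 0 in 18 of the 28 carriers and in 49.7% of all measured genes.

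**Figure D1:**
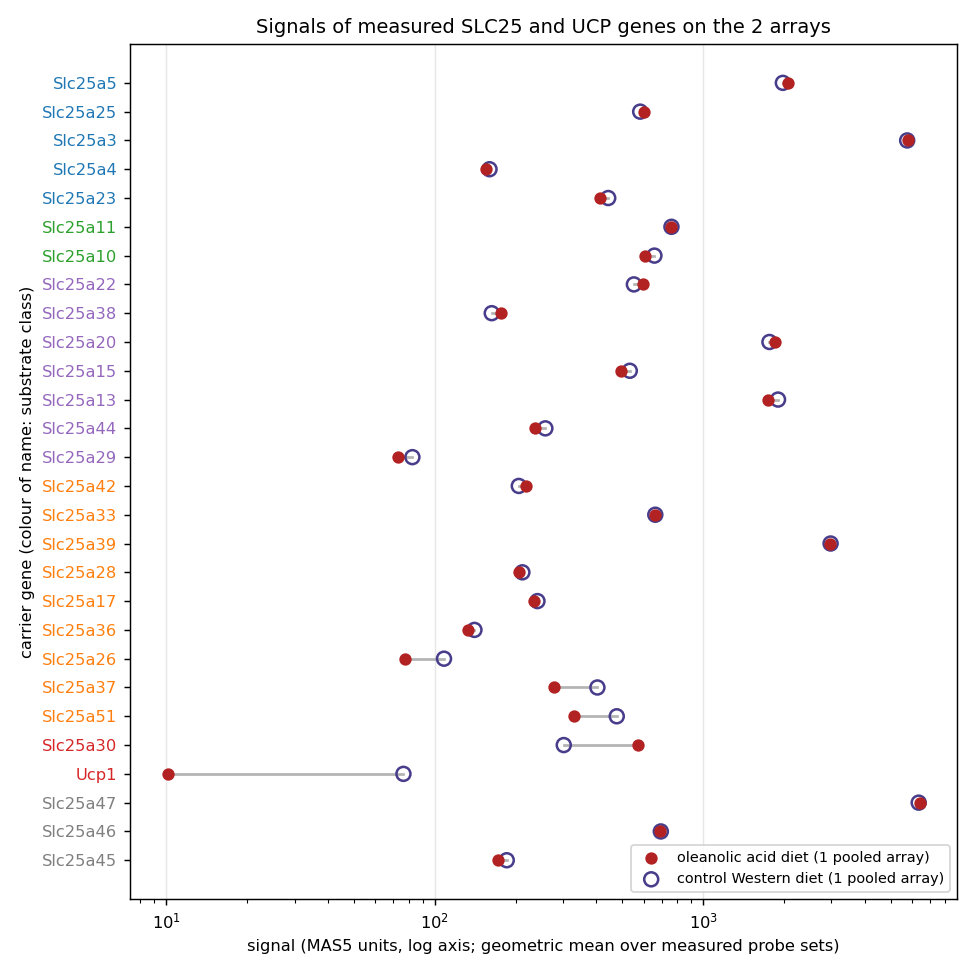
Signals of the 28 measured carriers on the oleanolic acid array (filled red) and the control array (open blue), on a log axis, 1 pooled array each and ordered by substrate class (the 6 colours of the names). For most carriers the points lie on each other, while Slc25a30 lies to the right and Slc25a51, Slc25a37, Slc25a26 and Ucp1 to the left in the oleanolic acid array; Ucp1 is drawn there at the floor of 10.1.

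Of the 28 measured carriers, 4 had a log2 ratio past 0.5 in size. Slc25a30 was the only one above 0.5, a size that 2.63% of measured genes passed upward. Slc25a51, Slc25a37 and Ucp1 were below -0.5, which 3.24% of measured genes were. Past a log2 ratio of 1 or 1.5, the latter being the size the submitters' design text considered, Ucp1 was the only carrier. It lay below both -1 (0.631% of genes) and -1.5 (0.28%), and it counted as measured only through its control signal. This call was lost, with 0 carriers below -1 or -1.5, when the floor was each array's median and when both signals had to reach the median. No carrier was above 1 (0.392% of genes) or 1.5 (0.112%). With so few carriers past each size, these counts are a description of named genes and not of the family.

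**Figure D2:**
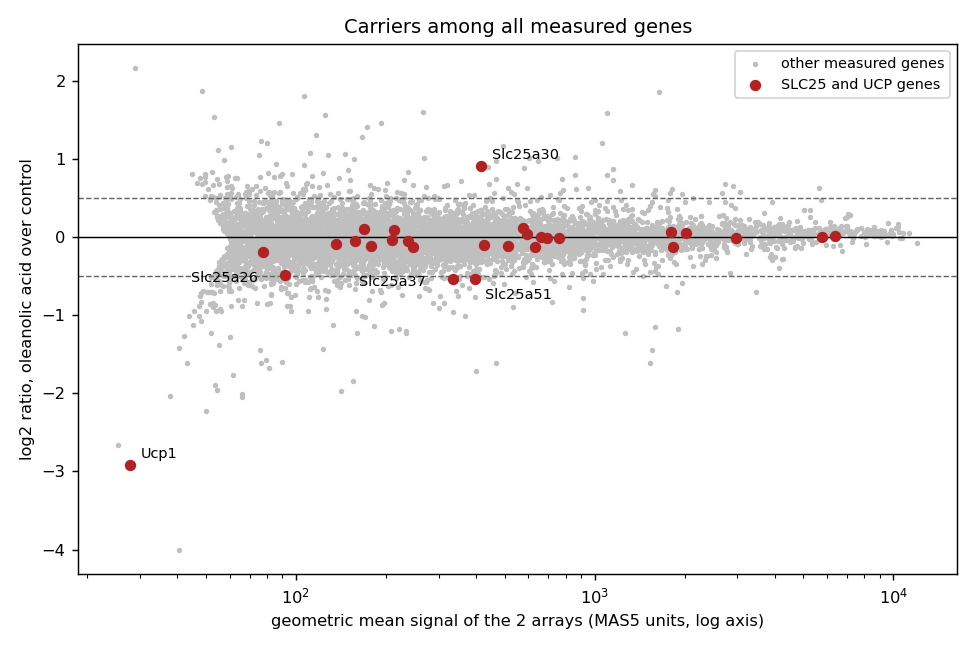
Log2 ratio, oleanolic acid over control, against the geometric mean signal of the 2 arrays for every measured gene (grey) and the 28 measured carriers (red), with dashed lines at 0.5 and -0.5. Slc25a30 (rank 34 from the top) lies above the upper dashed line, Slc25a51 and Slc25a37 just below the lower one, and Ucp1 far below at the dim end. Grey genes lie beyond each of the first 3.

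Slc25a30, also called kidney mitochondrial carrier protein 1, belongs to the branch of the family nearest the uncoupling proteins. Its signals in the oleanolic acid array were 320, 608 and 955 over the 3 measured probe sets, against 168, 297 and 553 for the same probe sets in the control array. The oleanolic acid signal was the higher one for all 3 probe sets, with log2 ratios of 0.93, 1.03 and 0.79. Together they gave a 1.89-fold higher signal in the oleanolic acid array, with a mean of 0.92 ± 0.12 on the log2 scale (SD over 3 probe sets). All 3 probe sets were designed from 1 target sequence, so they are not separate sources. Whether they read the same region of it was not examined. The probe set at 1.03 ends in _s_at, a mark of possible cross-hybridization, and the mean was 0.86 without that probe set. Slc25a30 ranked 34 from the top among 7137 genes, and 0.448% of the 1784 genes in its signal band had a larger log2 ratio in size. A further 2 probe sets of the gene were dim, one with signals of 23.5 in the oleanolic acid and 6.3 in the control array, the other with 6.5 and 0.8.

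The promoter windows of the members at both ends of the range, Slc25a30 and Ucp1, are shown because these carriers of the uncoupling branch had the highest and the lowest log2 ratio. Each window runs from 250 bases before to 50 after the start site in the RefSeq annotation of GRCm38.p6, chr14:75786988-75787287 on the minus strand for Slc25a30 and chr8:83290098-83290397 on the plus strand for Ucp1. Capitals mark matches, on either strand, to CACGTG (the E-box of clock factors), AGGTCA (the nuclear receptor half-site), CCAAT (the site of factor NF-Y), the TATA box sequence TATAAA or TTATGTAA (the site of clock output factors such as Dbp).
Slc25a30: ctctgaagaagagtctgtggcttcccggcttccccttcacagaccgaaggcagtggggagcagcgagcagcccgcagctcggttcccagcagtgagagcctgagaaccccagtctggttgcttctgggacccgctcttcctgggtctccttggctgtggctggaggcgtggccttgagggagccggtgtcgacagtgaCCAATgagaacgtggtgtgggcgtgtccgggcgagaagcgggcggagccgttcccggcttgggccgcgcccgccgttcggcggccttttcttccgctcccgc
Ucp1: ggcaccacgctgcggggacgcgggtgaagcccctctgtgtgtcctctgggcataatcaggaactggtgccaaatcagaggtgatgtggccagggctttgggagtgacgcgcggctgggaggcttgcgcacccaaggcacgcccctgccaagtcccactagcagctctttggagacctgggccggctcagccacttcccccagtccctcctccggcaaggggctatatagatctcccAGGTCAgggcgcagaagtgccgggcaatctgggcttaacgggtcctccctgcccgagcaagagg
Slc25a30 held 1 match, a CCAAT box starting at base 199 of the window, and Ucp1 held 1, an AGGTCA starting at base 237. Over all 32851 promoter windows of the table, 37.4% hold CCAAT, 16.3% AGGTCA, 7.15% CACGTG, 13.6% TATAAA and 0.938% TTATGTAA. Promoter windows matched 28 of the 35 members, with 37 windows in all. Of these 37, 19 held CCAAT, 5 AGGTCA, 6 CACGTG and 0 either of the others. The motifs did not overlap in the printed windows, and a match describes letters, not binding.

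Slc25a51, the carrier that brings NAD+ into the matrix, was the lower member past 0.5 with more than 1 measured probe set. It had signals of 210, 253 and 674 in the oleanolic acid array, against 296, 375 and 975 for the same 3 probe sets in the control array. Each probe set was lower in the oleanolic acid array, with log2 ratios of -0.50, -0.57 and -0.53. These probe sets were designed from 3 different target sequences, and their mean was -0.53 ± 0.04 (SD over 3 probe sets), a 1.45-fold lower signal. In its band of 1784 genes, 2.75% had a larger log2 ratio in size.

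Slc25a37, mitoferrin 1, imports iron for heme and iron-sulfur cluster synthesis and is best known from erythroid cells. Its single probe set had a signal of 279 in the oleanolic acid array and 404 in the control array (log2 ratio -0.53, probe set SD 0.17). Within its signal band, 2.80% of genes had a larger log2 ratio in size. Its relative Slc25a28, mitoferrin 2, the form of most other tissues, had 206 and 212 (log2 ratio -0.04, probe set SD 0.25). Of 4 erythroid markers with a probe set, Alas2 was the one measured, with 376 in the oleanolic acid and 394 in the control array, and the other 3 lay at 13.5 or below on both arrays. The 4 markers summed to 392 in the oleanolic acid array and 418 in the control array, nearly all of it Alas2. Their part in the Slc25a37 difference was not tested.

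Slc25a26, which imports the methyl donor S-adenosylmethionine, came next. Its measured probe set had a signal of 77.6 in the oleanolic acid array and 108 in the control array (log2 ratio -0.48, probe set SD 0.27). Among the 1785 genes of its dim band, 14.2% had a larger log2 ratio in size, so a difference of this size is common there. Its other probe set was dim, with 31.2 in the oleanolic acid and 37.1 in the control array. The measured probe set ends in _s_at, so Slc25a26 had no value when probe sets with that ending were left out.

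Ucp1 had a signal of 1.0 in the oleanolic acid array and 76.4 in the control array, on its single probe set. The first lies under the floor and the second is only slightly above the array median, so the difference is a bound set by the floor: Ucp1 was at least 7.56-fold lower in the oleanolic acid array. That bound moves with the floor: the log2 ratio of -2.92 was -0.37 with the floor at each array's median and -5.26 with it at the 10th percentile. Without detection calls, Ucp1 cannot be called present or absent on either array. Among other markers of brown fat, Cox8b, which encodes a respiratory complex IV subunit typical of brown fat, heart and muscle, had 9.5 in the oleanolic acid array and 64.0 in the control array. Cidea, a lipid droplet protein of brown fat, had 15.0 and 53.9. Of the 8 brown adipocyte markers with a probe set (Ucp1 was not on the list), 3 were measured. The signal was lower in the oleanolic acid array for 7 of the 8, Zic1 among them with both signals under the floor, and for 51.3% of all genes read from their brightest probe set. The eighth, Pank1, is a pantothenate kinase that liver also expresses, and with its 3679 and 3297 it makes up most of the list's summed signal of 3813 in the oleanolic acid and 3557 in the control array. Cox7a1 was close on both, with 77.9 and 85.6, while Dio2, Zic1, Fabp3 and Ebf2 lay at 14.9 or below in the oleanolic acid array and 22.2 or below in the control array. The white fat markers went both ways, 3 of 5 lower and 2 higher in the oleanolic acid array. Fabp4 (274 and 512 for its brightest probe set) and Adipoq (9.2 and 47.7) were lower there, while Pparg (129 and 94.1) was higher. The list summed to 414 in the oleanolic acid and 664 in the control array, and Fabp4 made up most of the difference. The skeletal muscle markers stayed at 26.3 or below on both arrays, and none of the 9 was measured. The part of these tissues in the Ucp1 difference was not tested.

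**Figure D3:**
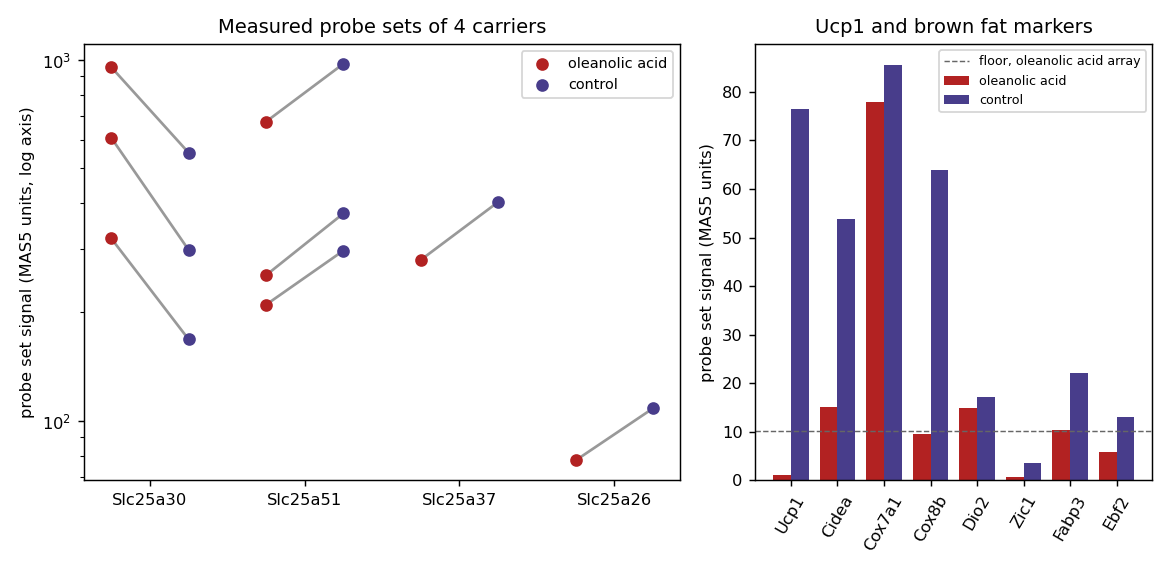
Left, signals of the measured probe sets of Slc25a30, Slc25a51, Slc25a37 and Slc25a26 (log axis), with a line joining the oleanolic acid (red) and control (blue) signal of each probe set. Right, signals of Ucp1 and of 7 brown fat markers (Pank1 left out for its liver signal) on the same 2 arrays, with the floor of the oleanolic acid array as a dashed line. The lines of Slc25a30 slope down to the control array and those of the other 3 slope up to it; Ucp1, Cox8b and Cidea are above 50 in the control array alone.

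Carriers of adenine nucleotides and phosphate, which supply ATP synthase and export its product, were flat. All 5 measured members lay within 0.2 of 0. Slc25a3, the phosphate carrier, had 5783 in the oleanolic acid array and 5759 in the control array (log2 ratio 0.0060). Slc25a5, the widely expressed ADP/ATP translocase 2, had a log2 ratio of 0.06 ± 0.08 (SD over 8 probe sets), with geometric mean signals of 2065 and 1982. Slc25a4, the heart and muscle translocase 1, had 155 and 160 (-0.05 ± 0.13, SD over 3 probe sets). Several Slc25a5 and Slc25a4 probe sets carry the suffix that marks possible cross-hybridization, so these close relatives may share signal. The calcium-regulated ATP-Mg/phosphate carriers Slc25a25 (602 and 583, log2 ratio 0.05) and Slc25a23 (412 and 443, -0.10) differed by less than their probe set SD of 0.17.

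The carboxylate carriers that feed gluconeogenesis and the malate shuttle were also close to 0. Slc25a11, the oxoglutarate/malate carrier, had 757 in the oleanolic acid array and 762 in the control array (log2 ratio -0.01). Slc25a10, the dicarboxylate carrier, had geometric means of 607 and 658 (log2 ratio -0.12 ± 0.09, SD over 2 probe sets).

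Amino acid and acylcarnitine carriers spanned -0.18 to 0.12, and 7 of 7 measured members lay within 0.2 of 0. Slc25a20, the carnitine-acylcarnitine translocase of fatty acid oxidation, had 1848 in the oleanolic acid array and 1766 in the control array (0.07 ± 0.06, SD over 2 probe sets). Slc25a13, citrin, the aspartate/glutamate carrier of liver, had 1748 and 1901 (log2 ratio -0.12, probe set SD 0.13). Slc25a15, the ornithine carrier of the urea cycle, was at -0.11 ± 0.17 (SD over 2 probe sets), its bright probe set at 2724 and 2702 and its dim one at 89.7 and 105. Neither of these urea cycle carriers differed by more than its probe set SD. The glutamate carrier Slc25a22 (0.12), the glycine carrier of heme synthesis Slc25a38 (0.11), the basic amino acid carrier Slc25a29 (-0.18) and the branched-chain amino acid carrier Slc25a44 (-0.13 ± 0.06, SD over 2 probe sets) made up the rest. Slc25a44, on signals of 237 in the oleanolic acid and 258 in the control array, and Slc25a20 were the members of this group whose log2 ratio was larger in size than their own probe set SD.

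The cofactor, nucleotide, glutathione and iron carriers held 3 of the lower members named above, and the other 6 of 9 lay within 0.2 of 0. Slc25a39, a glutathione carrier, was read by 3 probe sets with a log2 ratio of -0.0044 ± 0.03 (SD), on geometric mean signals of 2976 and 2985. Without its probe sets that carry a suffix for possible cross-hybridization, Slc25a39 was at -0.04. Slc25a33 and Slc25a36, carriers of pyrimidine nucleotides, were at 0.00022 and -0.08. Slc25a42, a coenzyme A carrier, was at 0.09 and Slc25a17, a cofactor carrier of the peroxisome membrane, at -0.04.

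Members with other or unsettled substrates were flat. Slc25a47, a carrier found mainly in hepatocytes, had 6420 in the oleanolic acid array and 6358 in the control array (log2 ratio 0.01). Its only probe set ends in _s_at, so Slc25a47 had no value when probe sets with that ending were left out. Slc25a46, an outer membrane protein of mitochondrial dynamics, was at -0.0070 ± 0.0011 (SD over 2 probe sets), and Slc25a45 at -0.11 (probe set SD 0.25).

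**Figure D4:**
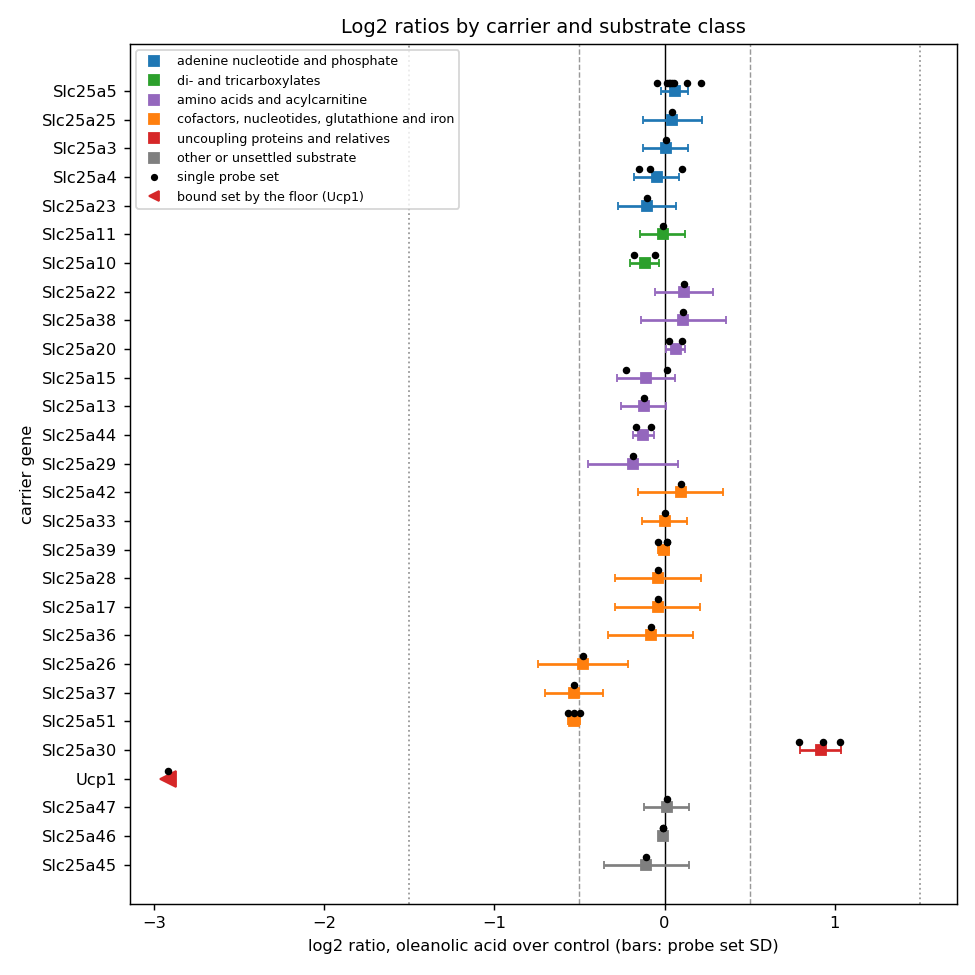
Log2 ratio, oleanolic acid over control, of each measured carrier by substrate class (colours), with bars for the probe set SD and black dots for single probe sets; dashed lines stand at 0.5 and -0.5, dotted lines at 1.5 and -1.5. Of the 28 carriers 24 lie between the dashed lines, and Ucp1, an arrow, is a bound.

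A total of 7 members were not measured, with 9 probe sets between 1.6 and 36.2 in the oleanolic acid array and between 4.7 and 38.3 in the control array. They were Slc25a2, Slc25a14, Slc25a24, Slc25a35, Slc25a48, Slc25a53 and Ucp3, the uncoupling protein of skeletal muscle. Ucp3 had 20.3 and 29.4 on its brighter probe set. The files hold no detection calls, so whether these probe sets were above background is unknown. Probe sets of the same carrier lay close together: 10 measured carriers had at least 2 measured probe sets, with a median SD of 0.07 and a largest of 0.17. In 6 of the 10 all probe sets shared a sign. The pooled SD over the 2427 such genes was 0.20, and 0.13 in the brightest band. A pooled SD weighs large SDs more than a median does, so the values are not like for like.

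Most genes of the pathways that the carriers serve lay near 0, as did most measured genes. Over 12 lists, 96 of 118 genes were measured, and 70 of them (72.9%, against 68.2% of all measured genes) lay within 0.2 of 0. These shares are not matched for signal. Many of the list genes are bright, and in the brightest band 82% of all genes lay within 0.2 of 0. Of the 96, 1 was above 0.5 and 2 below -0.5, where 2.63% and 3.24% of all measured genes were. The 15 measured ATP synthase genes, partners of the translocases and the phosphate carrier, had a median of 0.08, with 13 above 0; in the brightest band 58.2% of all genes were above 0 with a median of 0.03. The 7 carnitine shuttle and fatty acid entry genes had a median of 0.06, with Crat (0.33) and Cpt2 (0.32) highest and Cpt1a at -0.21 ± 0.33 (SD over 3 probe sets). The 7 urea cycle genes ran from -0.26 for argininosuccinate lyase Asl to 0.17 for Nags, with a median of 0.01. The 11 genes that import carrier proteins ran from -0.24 for the pore gene Tomm40 to 0.15 for Timm23, with a median of 0.02.

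Larger values occurred at single enzymes of these lists. Alas1, the first enzyme of heme synthesis, uses glycine in the matrix and had signals of 2836 and 561 in the oleanolic acid array, against 5646 and 1446 for the same probe sets in the control array. Both were lower in the oleanolic acid array, by a mean log2 ratio of -1.18 ± 0.26 (SD over 2 probe sets). The other 10 measured genes of the heme and iron-sulfur list were within 0.5 of 0, the coproporphyrinogen oxidase gene Cpox highest at 0.40, and the list median was 0.0072. Pdk4, the kinase that inhibits pyruvate dehydrogenase, was at 0.93 (147.5 in the oleanolic acid and 77.3 in the control array), while the pyruvate carrier gene Mpc1 was at 0.09 and the 7 genes of pyruvate entry and use had a median of 0.01. The malate-aspartate list (median -0.06) also held Gpd1 and Gpd2, which belong to the glycerol phosphate shuttle and not to the malate-aspartate shuttle. In it, Got1, the cytosolic aspartate aminotransferase, was at -0.47 and Gpd1 at -0.80 ± 1.80 (SD over 3 probe sets). The Gpd1 value comes from 1 dim probe set with 8.5 in the oleanolic acid and 73.7 in the control array (-2.87), while the brighter probe sets were at 0.34 and 0.14.

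**Figure D5:**
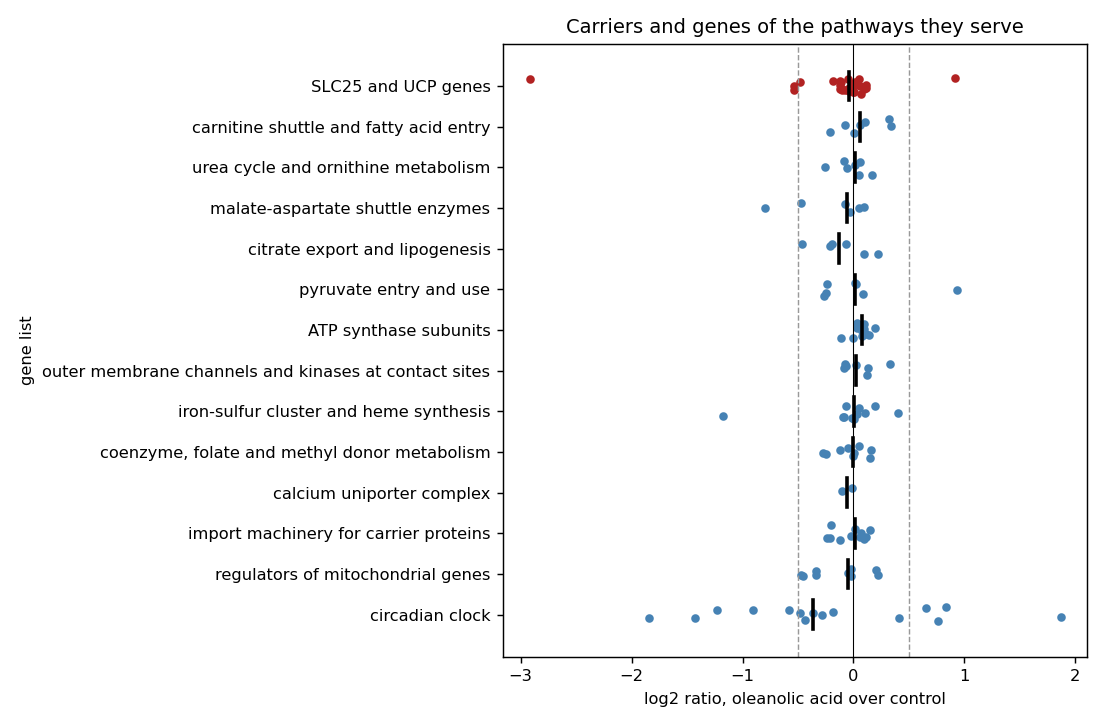
Log2 ratio, oleanolic acid over control, of the 28 measured carriers (red, top) and of the measured genes of 13 lists (blue), with the median of each as a black bar and dashed lines at 0.5 and -0.5. The partner lists centre near 0 with single genes outside the lines, while the circadian clock list spreads from -1.84 to 1.87.

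Among regulators of mitochondrial genes, 7 of 9 had a log2 ratio below 0, as did 49.7% of all measured genes, and none of the 9 was past 0.5. The coactivators Ppargc1a (-0.46 ± 0.15, SD over 5 probe sets) and Ppargc1b (-0.47) were lowest, followed by the fatty acid receptor Ppara (-0.34) and the receptor Esrra (-0.33). Hnf4a (0.22 ± 0.33, SD over 4 probe sets) and the mitochondrial DNA factor Tfam (0.20) were the 2 above 0. The list median was -0.05, and -0.30 when each gene was read from its brightest probe set. The citrate export and lipogenesis list had a median of -0.13 with Acly, which splits the exported citrate, lowest at -0.46 ± 0.30 (SD over 3 probe sets). In the coenzyme and methyl donor list (median -0.0033), Pank3 (-0.27) and Shmt2 (-0.25 ± 0.32, SD over 4 probe sets) were lowest. Mat1a, which makes the S-adenosylmethionine that Slc25a26 carries, had 6380 in the oleanolic acid and 6394 in the control array. The 7 measured genes of the list for contact sites between the membranes, among them the outer membrane channels Vdac1, Vdac2 and Vdac3, had a median of 0.02. Ppif, which encodes the matrix protein cyclophilin D, was highest at 0.33, and the 2 measured genes of the calcium uniporter list, Smdt1 and Letm1, were at -0.10 and -0.01.

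Clock genes had larger log2 ratios beside these values. Of 15 measured clock genes, 4 were above 0.5 (2.63% of all measured genes) and 5 below -0.5 (3.24%), with Arntl at 1.87, Per3 at -1.84, Per2 at -1.43 and Dbp at -1.23. Arntl had 92.5 in the oleanolic acid and 25.3 in the control array on 1 probe set. Arntl and Nr1d1 (107.4 and 60.4), both above 0.5, counted as measured only through the oleanolic acid array. The hour of tissue collection is unstated in the labels, and whether the clock difference has a part in the values of Slc25a30, Slc25a51, Slc25a37 or Slc25a26 was not tested.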

How the data were processed

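Each diet was measured on 1 pooled liver array. The submitters' processing notes name MAS5, without a version, as the source of the deposited linear intensities; the 2% trimmed mean was 300.1 on both arrays, from the values. Of 22690 probe sets, 64 are Affymetrix controls; 20380 carried 1 gene symbol, 691 several and 1555 none, and only the first were used. All 35 members matched RefSeq (GRCm38.p6) by gene identifier with unchanged symbols. After flooring, log2 ratios of measured probe sets (11642) were averaged per gene (7137 genes, of which 2427 had at least 2). Bands are quartiles of mean log2 signal. With 2 arrays, their number sets the precision. The members, lists, substrate classes and sizes 1, 0.5 and 0.2 were chosen with earlier results of these data known. Named genes were every member past 0.5, the brightest 10, up to 4 per class and per list, and the uncoupling proteins. Further genes (Alb, Apoa1, Cidea, Dio2, Zic1, Fabp3, Ebf2, Adipoq, Mat1a, Mpc1, Vdac1 to Vdac3, Hnf4a, Tfam) were named after their values were seen. Nr1d1, the members Slc25a15, Slc25a17, Slc25a28, Slc25a36 and Slc25a38, and the members not measured were also named outside these rules. The procedure was tested on simulated data. The simulated noise was drawn from the pooled probe set SD of these arrays, with no variation between arrays or pools. It therefore cannot show how well 2 pooled arrays detect a difference. The 9 alternatives covered floor, filter, probe set choice and normalization. Python 3.11.15, pandas 2.3.3 and statsmodels 0.14.6 were used.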

Additional observations from a re-analysis of the deposited data

How the results depend on the processing

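No paired analysis was possible because each diet has 1 pooled array, and no replicate could be left out. Under 9 alternatives, 240 of 249 carrier values moved by less than the probe set SD, 9 moved by more and 0 changed sign among carriers past 0.5. Many of these values could not move, so the tally is no measure of robustness. Both other floors and the filter on both signals left every carrier but Ucp1 unchanged, and 18 carriers had only 1 measured probe set to choose from. Carriers without a value under an alternative, such as Ucp1 under that filter, are not in the tally. Slc25a30 ranged from 0.76 (all probe sets counted as measured) to 0.94, and was at 0.79 with its brightest probe set alone. Slc25a51 and Slc25a37 stayed between -0.51 and -0.53, and Slc25a26 ran from -0.48 to -0.36; Slc25a4 was at 0.10 with its brightest. Ucp1 was at -0.37 with the floor at each array's median and -5.26 with it at the 10th percentile. With the median floor, 0 carriers were below -1.5 and 0 below -1, and the same counts, 0 and 0, were found when both signals had to reach the median, which removes Ucp1. With all probe sets counted, 2 carriers were above 0.5 and 6 below -0.5, the added ones being dim. The median of the mitochondrial regulators was -0.30 with the brightest probe set alone. The carrier median ran from -0.08 (all probe sets; -0.08 over all genes, the difference between the floors) to -0.0082 (brightest probe set). Low signal limits Slc25a26, Slc25a29 and the unmeasured members.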
